A study of Rattus norvegicus with 6 samples.

Results

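The genes for the proteins of the cytosolic ribosome were followed in rat brain after stroke. Members were the genes with a probe set (a group of array probes summarised to 1 value) annotated with exactly 1 symbol that is Rplp0, Rplp1, Rplp2, Rpsa, or Rpl or Rps with a number and at most a closing a, x, y or l. S6 kinase genes were left out. This gave 68 genes, 42 of the large and 26 of the small subunit, of 14497 genes with a single symbol. They had 222 probe sets, and the one with the highest mean over the 6 arrays stood for its gene. A gene entered the test if it reached the 40th percentile of at least 1 array, which 67 members and 10947 genes in all did. Rps27 did not, with values between 5.35 and 6.46. Of the 68 members, 65 lay above the upper quartile of all probe sets on every array.

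RNA came from male Sprague-Dawley rats and was hybridised to 6 single-channel whole-transcript arrays, 1 for each combination of age and time. Naive tissue was labelled healthy brain, with no region named, from rats without stroke, pooled from 15 aged (18 to 20 months) and from 15 young rats (3 to 5 months). Tissue around the infarct was taken 3 d and 14 d after the middle cerebral artery had been lifted for a time with a hook, from pools of 23 aged (19 to 20 months) and 19 young rats (3 to 4 months) at each time. The labels name no sham-operated rats and no region of the naive tissue. Effects of the operation, of the infarct and of the region sampled cannot be told apart. Each group is thus a single pool, and precision is limited by having only 6 arrays. Time and age were fitted together with limma over all 6 arrays. Each time difference rests on the aged and the young pair. Its error rests on how far the ages differ in their changes over all times, and on the variance prior of limma. Each ± below gives the standard error of a log2 change in this fit, and p-values are limma's, adjusted with Benjamini-Hochberg over all 10947 genes.

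Ribosomal proteins bind the ribosomal RNAs to form the small subunit, which decodes the messenger RNA, and the large subunit, which joins amino acids. Cells make most of them in equal numbers, and their messenger RNAs are among the most abundant of a cell. Many of these messenger RNAs open with a C followed by a run of pyrimidines, the terminal oligopyrimidine (TOP) tract, through which mTOR signalling controls their translation. In brain, ribosomes also lie in dendrites and glial processes, and growing and dividing cells build new ones.

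Some members have such a start in the RefSeq promoter table of rat assembly GRCr8, in which the base at the annotated start was read on the gene's strand. A C at the start followed by at least 4 bases that are each C or T was found in 22 of the 56 members with an entry, 39.3%, and in 3.04% of the 27401 other genes. Such a run beginning no more than 10 bases from the annotated start was found in 75% of members and in 31.2% of other genes. The windows below run from 10 bases before the start to 20 from it, with the run in capitals. They show the 4 members with an entry that changed most at 3 d, the 3 that changed least or downward, and the 2 with the longest run.
Rpl18, chr1:105325260-105325289, plus strand: acctggtctagcaggaggcgccatcatggt
Rps28, chr7:15311314-15311343, minus strand: ccctgctcacgtgactcctctccgctagat
Rpl22, chr5:168117951-168117980, plus strand: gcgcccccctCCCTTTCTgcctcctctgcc
Rplp0, chr12:46718371-46718400, minus strand: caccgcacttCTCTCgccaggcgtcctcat
Rps10, chr20:5700725-5700754, minus strand: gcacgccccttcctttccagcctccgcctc
Rpl36a, chrX:102059439-102059468, plus strand: tataaacttccgttgctgctctagcctctc
Rps18, chr20:4933735-4933764, plus strand: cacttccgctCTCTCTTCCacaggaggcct
Rpl10, chrX:157205840-157205869, plus strand: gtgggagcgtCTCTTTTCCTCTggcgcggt
Rpl31, chr9:49143101-49143130, plus strand: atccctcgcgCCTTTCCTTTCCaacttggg
Rps10 has a pyrimidine run here too, which begins before the annotated start, and the base at that start is T. Runs stood both in members that rose most and in members that did not rise. At 3 d the median change was 0.33 in the 21 tested members with the run at the start and 0.38 in the 34 without it, and at 14 d it was 0.30 with and 0.19 without the run. A run is a match of letters, and annotated starts can be off by some bases.

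The first comparison was of tissue at 3 d with naive tissue. The median change of ribosomal protein genes at 3 d was 0.38 on the log2 scale, which is 1.30-fold, with quartiles of 0.21 and 0.54 and a range of -0.31 to 1.47. Of 67 tested members, 26 rose and 0 fell at an adjusted p under 0.05, where 14.4% of all genes were called higher and 7.87% lower. At an unadjusted p under 0.05 these were 45 and 0 members, against 20.2% and 16.8% of all genes. Members of both subunits rose, 16 of 42 large and 10 of 25 small subunit genes, with medians of 0.38 each. For 53 members both 3 d arrays lay above both naive arrays, against 33.8% of all genes, and for 1 both lay below, against 38.1%. Within the aged pair 54 members were above naive, against 45.1% of all genes, and within the young pair 64, against 49.3%. The median over all genes was -0.03, and that of 702 other genes with means between 10.57 and 12.93, the range from the members' lower quartile to their highest value, was -0.10. In bulk tissue, more cells of a kind and more RNA per cell cannot be told apart. The call count depends on single arrays. Leaving out the young naive array gave 2 members called, where 7.90% of all genes were. Leaving out the aged naive array gave 3 (6.18%), the young 3 d array 2 (7.64%) and the aged 3 d array 15 (12.4%), so in 3 of these 4 fits the share of members called was below the background. The members' median ranged from 0.27 to 0.47 with each array left out, and with trended and robust variances 46 members were called, where 16.7% of all genes were.

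**Figure D1:**
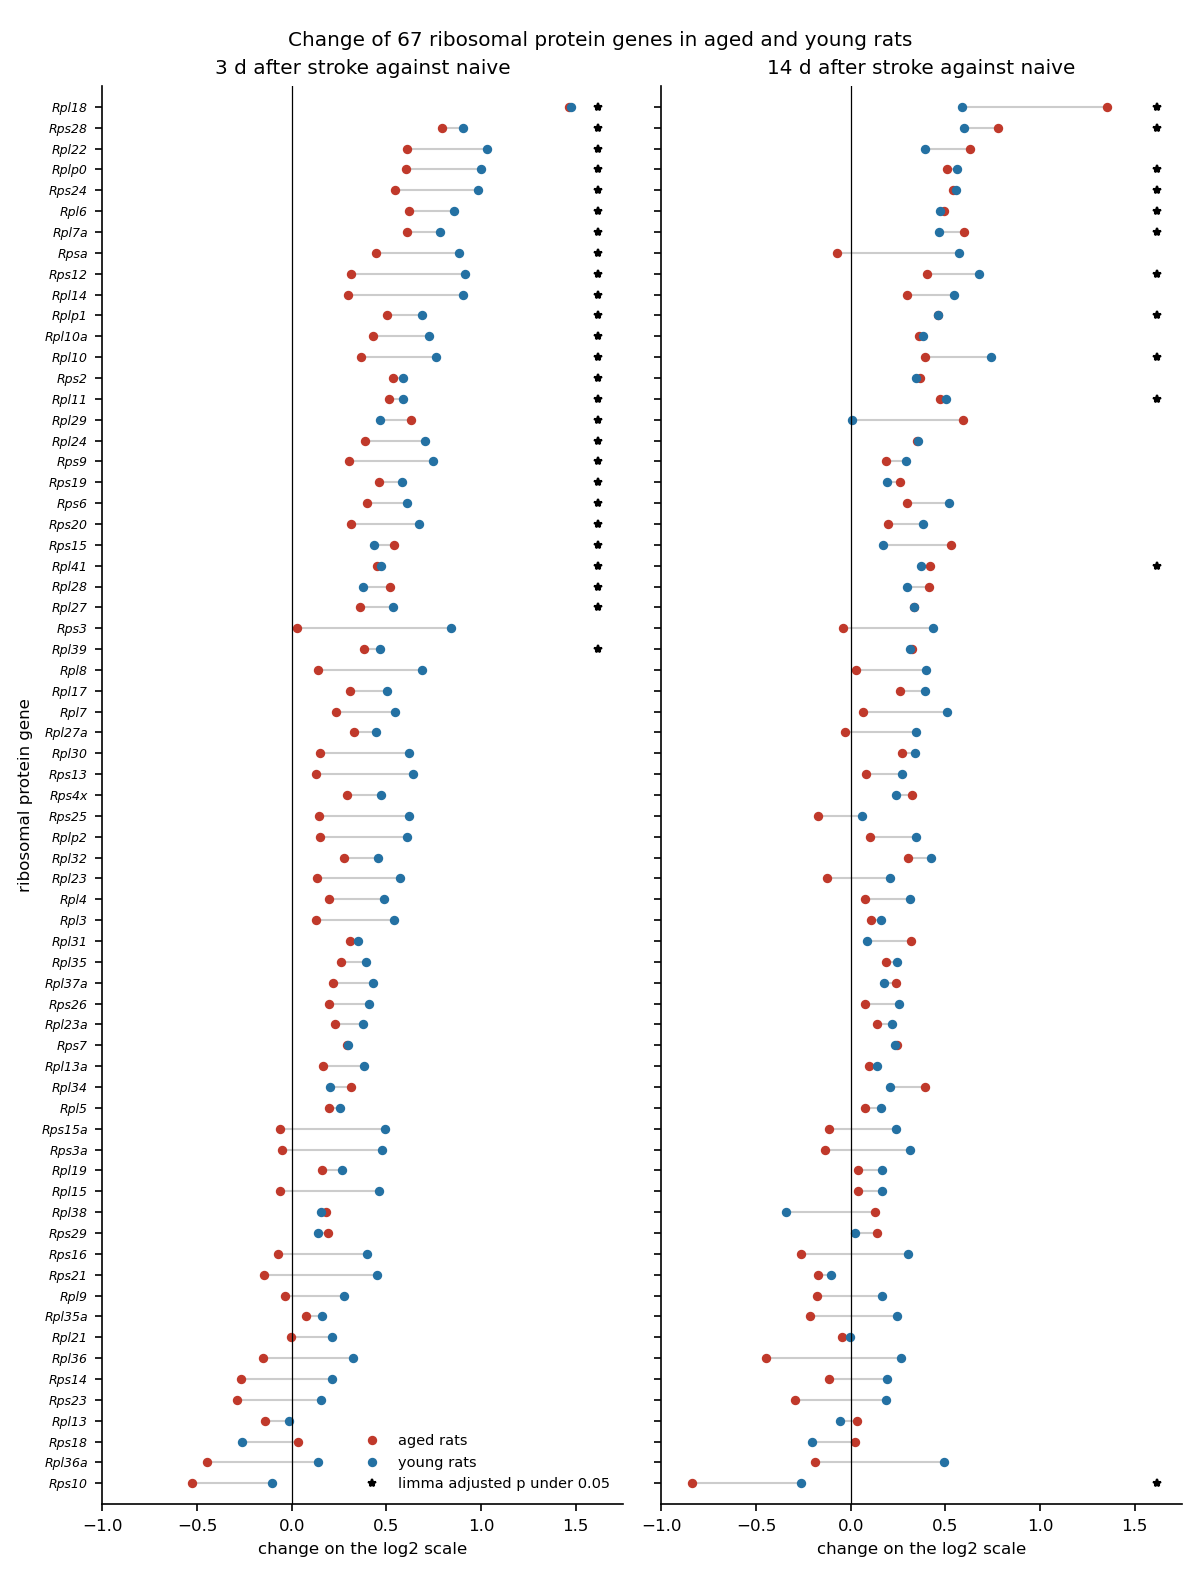
Change of each tested ribosomal protein gene after stroke against naive on the log2 scale, at 3 d (left) and 14 d (right), as points for the aged and the young pair of arrays. Stars mark genes with an adjusted p under 0.05 in the limma fit (26 higher at 3 d, 11 higher and Rps10 lower at 14 d), and most points at 3 d lie right of 0 in both ages.

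**Figure D2:**
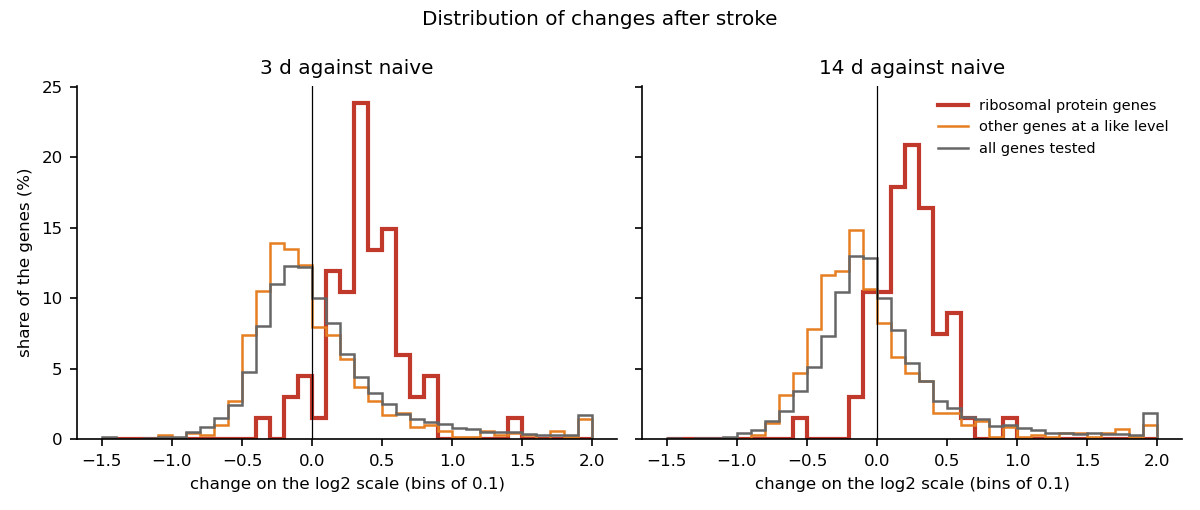
Share of genes in percent by change on the log2 scale in bins of 0.1, for the 67 ribosomal protein genes, 702 other genes at a like level and all 10947 genes, with values beyond the axis counted in the end bins. The members' medians are 0.38 at 3 d and 0.22 at 14 d, while the medians of both other sets are below 0.

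Among large subunit genes the widest change was that of Rpl18. Its log2 level was 11.76 in aged and 11.63 in young rats at 3 d, against 10.29 in aged and 10.15 in young naive rats. The 4 values fall into 2 levels that do not overlap, with a change of 1.47 ± 0.20, 2.77-fold, and an adjusted p = 0.0022. This call held without each array in turn. Rpl22, an RNA-binding protein of the large subunit, was at 9.79 in aged and 10.08 in young rats at 3 d, against 9.18 in aged and 9.04 in young naive rats. It rose by 0.82 ± 0.17 (adjusted p = 0.0128), more in the young pair than in the aged pair.

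The stalk of the large subunit, built of Rplp0, Rplp1 and Rplp2, recruits the elongation factors. Rplp0 was at 11.51 in aged and 11.76 in young rats at 3 d, against 10.91 in aged and 10.76 in young naive rats, and rose by 0.80 ± 0.14 (adjusted p = 0.0066). Rplp1 rose by 0.60 ± 0.12 (adjusted p = 0.0129). Rplp2 differed from naive at 3 d by 0.15 in aged and 0.61 in young rats, and its change of 0.38 ± 0.14 did not pass (adjusted p = 0.0978). All 3 stalk genes had both 3 d arrays above both naive arrays. Rpl11 and Rpl5 carry the 5S ribosomal RNA into the large subunit and, when ribosome assembly fails, can bind the p53 regulator Mdm2. Rpl11 was at 11.29 in aged and 11.26 in young rats at 3 d, against 10.78 in aged and 10.68 in young naive rats, and rose by 0.55 ± 0.12 (adjusted p = 0.0145). Rpl5 changed by 0.23 ± 0.12 and did not pass (adjusted p = 0.2). Rpl13a, a large subunit protein whose messenger RNA often serves as a reference in quantitative PCR, was at 11.06 in aged and 11.23 in young rats at 3 d, against 10.90 in aged and 10.84 in young naive rats. Its change of 0.27 ± 0.12 did not pass (adjusted p = 0.154), although its 3 d values lay above both naive values.

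Among small subunit genes Rps28 changed most. It was at 11.98 in aged and 11.88 in young rats at 3 d, against 11.19 in aged and 10.97 in young naive rats, and rose by 0.85 ± 0.13 (adjusted p = 0.0035). Rps24 rose by 0.76 ± 0.15 (adjusted p = 0.0098). Rps6 is the small subunit protein that S6 kinases phosphorylate below mTOR. It was at 12.08 in aged and 12.11 in young rats at 3 d, against 11.68 in aged and 11.51 in young naive rats, and rose by 0.50 ± 0.13 (adjusted p = 0.0268). Rpsa, which also serves as a precursor of a laminin receptor, rose by 0.67 ± 0.17 (adjusted p = 0.0278). Rps19, often mutated in the human anaemia Diamond-Blackfan, rose by 0.52 ± 0.12 (adjusted p = 0.0211). For these genes the 3 d and naive values did not overlap. Of these calls at 3 d, Rps28 lost its call when the aged naive array was omitted, Rplp0 and Rpsa when the young naive or young 3 d array was, and Rpl22, Rplp1, Rps24, Rpl11, Rps6 and Rps19 when either naive or the young 3 d array was. Rpl11, Rps6, Rps19 and Rpsa also lost it when the aged 3 d array was omitted.

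The members at the other end did not pass. Rps10, a small subunit protein near the entry of the messenger RNA, was at 11.01 in aged and 10.93 in young rats at 3 d, against 11.54 in aged and 11.03 in young naive rats. It was the only member with both 3 d values below both naive values, with a change of -0.31 ± 0.16 (adjusted p = 0.194). Rpl36a, a large subunit gene of the X chromosome, had a change of -0.15 ± 0.18 (adjusted p = 0.557) with opposite signs in the ages. Rps18, of the small subunit head, differed from naive at 3 d by 0.03 in aged and -0.26 in young rats. Its change of -0.11 ± 0.13 (adjusted p = 0.551) depends on the probe set: another Rps18 probe set, the one with the highest variance, rose by 0.60 with an adjusted p = 0.0134. Rpl13 changed by -0.08 ± 0.12, and its other probe sets lay on both sides of 0, with mean changes from -0.33 to 0.28.

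**Figure D3:**
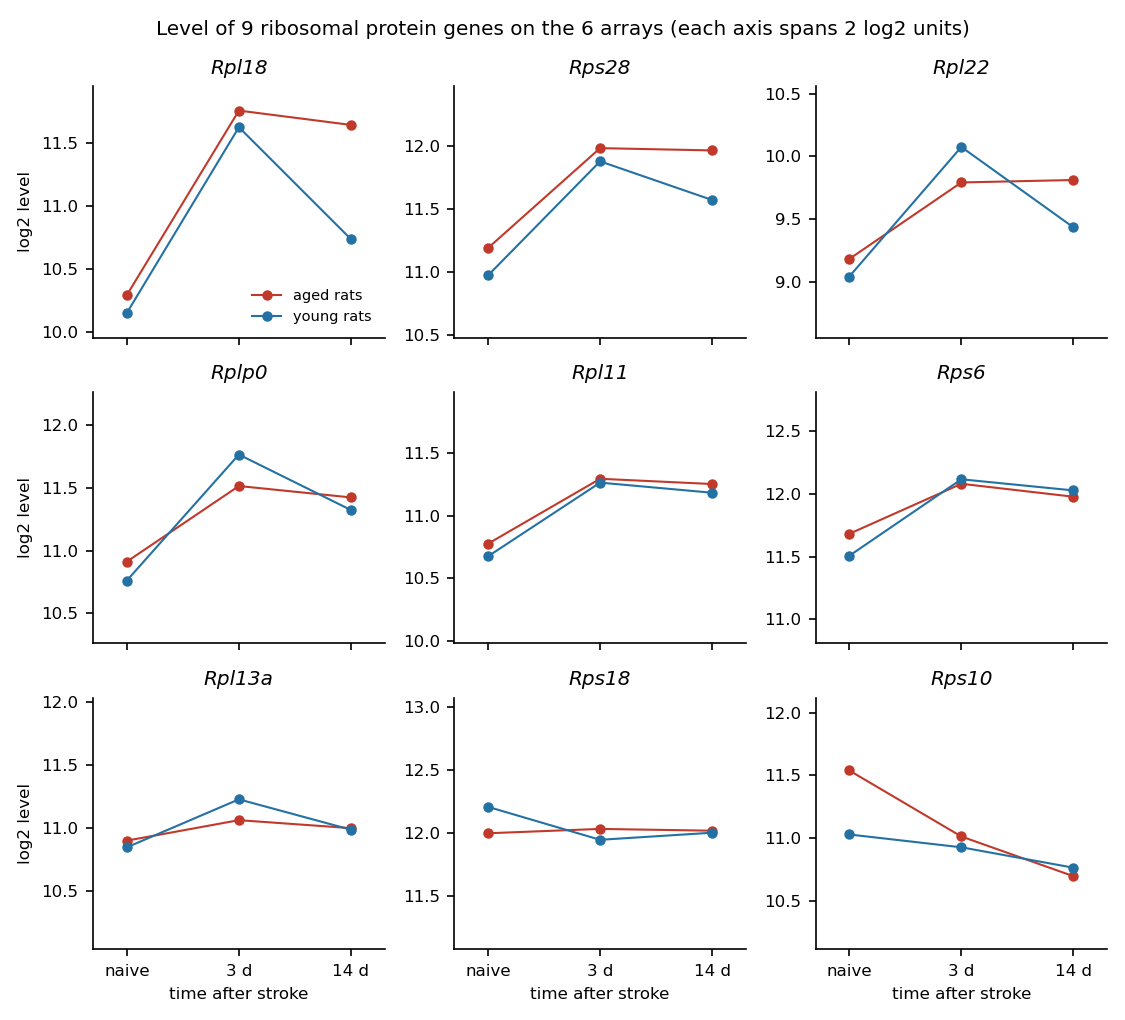
Log2 level of 9 ribosomal protein genes on the 6 arrays, by time after stroke on the horizontal axis, with a line for aged and one for young rats. The upper 6 genes have all values at 3 d above both naive values, and Rps10 in the lower right has its highest values on the naive arrays.

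The second comparison was of tissue at 14 d with the same naive arrays. The median change of ribosomal protein genes was 0.22, 1.17-fold, against -0.05 over all genes and -0.14 in the 702 other genes at a like level. Of 67 members 11 rose and 1 fell, where 13.6% of all genes were called higher and 11.4% lower, so the share of members called higher, 16.4%, was near the background. At an unadjusted p under 0.05, 24 members were higher and 1 lower, against 18.5% and 20% of all genes. For 41 members both 14 d arrays lay above both naive arrays, against 28.3% of all genes, and for 1 both lay below, against 37.9%. Within the aged pair 50 members were above naive, against 45.6% of all genes, and within the young pair 61, against 43.6%. Leaving out the young naive array gave 1 risen member, where 7.91% of all genes were called higher, the aged naive array 0 (5.76%) and the aged 14 d array 3 (9.98%), all below the background. With trended and robust variances it was 26, where 15.5% of all genes were called higher. The median moved to 0.12 without the young naive and to 0.30 without the aged naive array.

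Rpl18 was at 11.64 in aged and 10.74 in young rats at 14 d, against 10.29 in aged and 10.15 in young naive rats. It rose by 0.97 ± 0.20 (adjusted p = 0.0124), mostly in the aged pair, and the call ended without the aged naive array. Rps28 was at 11.97 in aged and 11.57 in young rats at 14 d, against 11.19 in aged and 10.97 in young naive rats, and rose by 0.69 ± 0.13 (adjusted p = 0.0082). Rpl10, a large subunit protein of the X chromosome that joins late in assembly, was at 11.77 in aged and 11.87 in young rats at 14 d, against 11.38 in aged and 11.13 in young naive rats. It rose by 0.57 ± 0.14 (adjusted p = 0.0238). Rps24 rose by 0.55 ± 0.15, Rplp0 by 0.54 ± 0.14, Rpl11 by 0.49 ± 0.12 and Rplp1 by 0.46 ± 0.12. These genes had both 14 d values above both naive values. The calls of Rps28 and Rpl10 ended without either naive array, and those of Rps24, Rplp0, Rpl11 and Rplp1 also without the aged 14 d array. Rpsa changed by 0.25 ± 0.17 (adjusted p = 0.316), Rps6 by 0.41 ± 0.13 (adjusted p = 0.0501) and Rpl22 by 0.51 ± 0.17 (adjusted p = 0.062), and none of them passed.

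Rps10 was the 1 member that fell at 14 d. It was at 10.70 in aged and 10.77 in young rats at 14 d, against 11.54 in aged and 11.03 in young naive rats, and fell by 0.55 ± 0.16 on the log2 scale (adjusted p = 0.0407). Both 14 d values lay below both naive values. The call was lost with the mean of the gene's probe sets, with no filter, in a model of time alone, and when the aged naive or aged 14 d array was omitted. Its other 3 probe sets that reached the 40th percentile had mean changes of -0.30, -0.05 and -0.23.

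Tissue at 14 d was also compared directly with tissue at 3 d. The median change of the members was -0.14, against -0.03 over all genes. With limma 0 members passed in either direction, where 1.34% of all genes were called higher and 1.82% lower. At an unadjusted p under 0.05, 4 members were lower and 0 higher, against 6.6% and 5.11% of all genes, and with trended and robust variances 1 was lower, Rps25, where 2.57% of all genes were. For 37 members both 14 d arrays lay below both 3 d arrays, against 21.9% of all genes, and for 0 both lay above, against 12.5%. Rpl18 changed by -0.50 ± 0.20 (adjusted p = 0.361), Rps25 by -0.44 ± 0.15 (adjusted p = 0.239) and Rpsa by -0.42 ± 0.17 (adjusted p = 0.371). Without the aged 14 d array 1 member was lower, Rpl18, where 3.19% of all genes were.

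Age was compared over the 3 times and within each. Over all 3 times with limma 0 of 67 members passed, with a median difference of 0.02 in aged minus young, and 0% of all genes were called in either direction. At an unadjusted p under 0.05, 2 members were higher and 1 lower in aged rats, against 3.71% and 4.07% of all genes, and with trended and robust variances 0 members passed as well. In single arrays the difference changed sign with time, which was not tested. In naive tissue 60 of 67 members were higher in aged than in young rats, with a median difference of 0.17, against 48.8% of all genes and a median of -0.004. At 3 d only 19 members were higher in aged rats, against 37.5% of all genes, with a median of -0.09, and at 14 d 39 members were, against 52.1% of all genes, with a median of 0.05. The change at 3 d was larger in the young pair for 60 members, against 58.9% of all genes, with medians of 0.26 in aged and 0.48 in young rats. Both patterns involve the young naive array, which gave the lowest of the 6 values for 51 members, against 18.0% of all genes. They also involve the young 3 d array, which gave the highest of the 6 values for 46 members, against 20.4% of all genes.

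**Figure D4:**
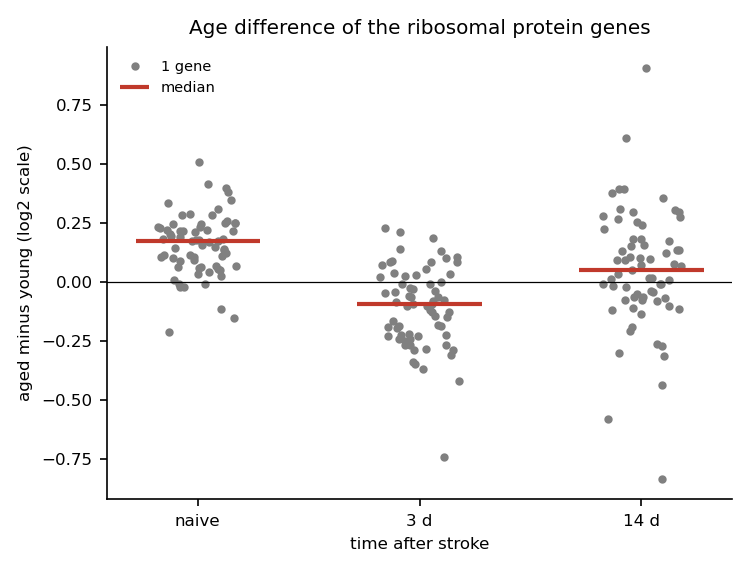
Difference of the log2 level between aged and young rats for each of the 67 tested ribosomal protein genes in naive tissue and at 3 d and 14 d after stroke, from 1 array of each age. The red medians are 0.17, -0.09 and 0.05.

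Single members departed from this by more. Rpl36a was at 11.26 in naive, 10.81 in 3 d and 11.07 in 14 d tissue of aged rats, against 11.41, 11.55 and 11.90 in young rats. All 3 aged values lay below all 3 young values, and the difference was -0.57 ± 0.15 (adjusted p = 0.63). A second Rpl36a probe set was lower in aged rats at 3 d, with 9.65 in aged and 10.80 in young rats. At 14 d it was at 10.03 in aged and 11.18 in young rats. In naive tissue it was nearly equal, at 10.66 in aged and 10.68 in young rats. Rpl13 was the only member with all 3 aged values above all 3 young values, with a difference of 0.20 ± 0.10 (adjusted p = 0.646). Over all genes 1.96% had such a gap downward and 1.74% upward. The other Rpl13 probe sets were all lower in aged than in young rats at 3 d, the brightest at 10.12 in aged and 10.31 in young rats. Rpl18 was higher in aged than in young rats at 14 d, by 0.91, and Rpl29 by 0.61. In naive tissue Rps10 (0.51), Rps25 (0.42) and Rps3 (0.40) had the largest positive and Rps18 (-0.21) the lowest difference.

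Other genes of protein synthesis were read from lists chosen with earlier results of these data known. Their counts stand against 14.4% of all genes called higher and 7.87% lower at 3 d, and 13.6% and 11.4% at 14 d. A list of other genes described as TOP messenger RNAs, many for elongation factors and RNA-binding proteins, had 7 of 17 higher at 3 d and 0 lower, with a median of 0.28. By the letters searched above, 0 of its 13 genes with a promoter entry had the run at the annotated start. They included Vim (vimentin, an intermediate filament of reactive astrocytes, 2.19 ± 0.14), Eif3l (a subunit of initiation factor 3, 0.82 ± 0.13), Npm1 (a nucleolar chaperone of ribosome assembly, 0.58 ± 0.13) and Eef1g (an elongation factor subunit, 0.49 ± 0.12). Of 10 elongation and termination genes 3 rose and 1 fell. The one that fell was Eef1a2, the elongation factor of mature neurons, at 11.20 in aged and 11.29 in young rats at 3 d, against 11.73 in aged and 11.79 in young naive rats, a fall by 0.52 ± 0.12 on the log2 scale (adjusted p = 0.019). Eef2k, the kinase that inhibits elongation factor 2, rose by 0.62 ± 0.15. Rack1, a small subunit protein outside the naming rule, rose by 0.47 ± 0.13 (adjusted p = 0.038), and Fau, whose product is cut to a small subunit protein, changed by 0.11 ± 0.14 and did not pass. Of 31 initiation genes 5 rose and 0 fell, a share near that of all genes, with a median of 0.13. They included Eif4ebp1 (0.69 ± 0.12) and Eif4ebp2 (0.73 ± 0.13), which bind and restrain initiation factor 4E.

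The genes that build ribosomes moved little as a list: 2 of 53 rose at 3 d, with a median of 0.07. These were Npm1 and Myc, a transcription factor that drives ribosome production, which rose by 1.33 ± 0.17 (adjusted p = 0.0018). Of 68 mitochondrial ribosome genes 0 passed in either direction at 3 d, with a median of -0.04. At 14 d 1 rose and 5 fell, with a median of -0.20, and the share that fell was below the 11.4% of all genes. Mrpl48 fell by 0.53 ± 0.12 on the log2 scale at 14 d and Mrpl52 rose by 0.51 ± 0.14. Among 19 tRNA synthetase genes 1 rose at 3 d. At 14 d 3 fell, a share near the 11.4% of all genes, with Hars1 at -0.59 ± 0.12. Of 16 mTOR and S6 kinase genes only Rps6ka5 passed at 3 d, with -0.45 ± 0.12. No gene of 13 in the proteasome core passed at 3 d or 14 d. At 14 d the other TOP list had 2 of 17 higher and the initiation list 3 of 31, both shares below the 13.6% of all genes.

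**Figure D5:**
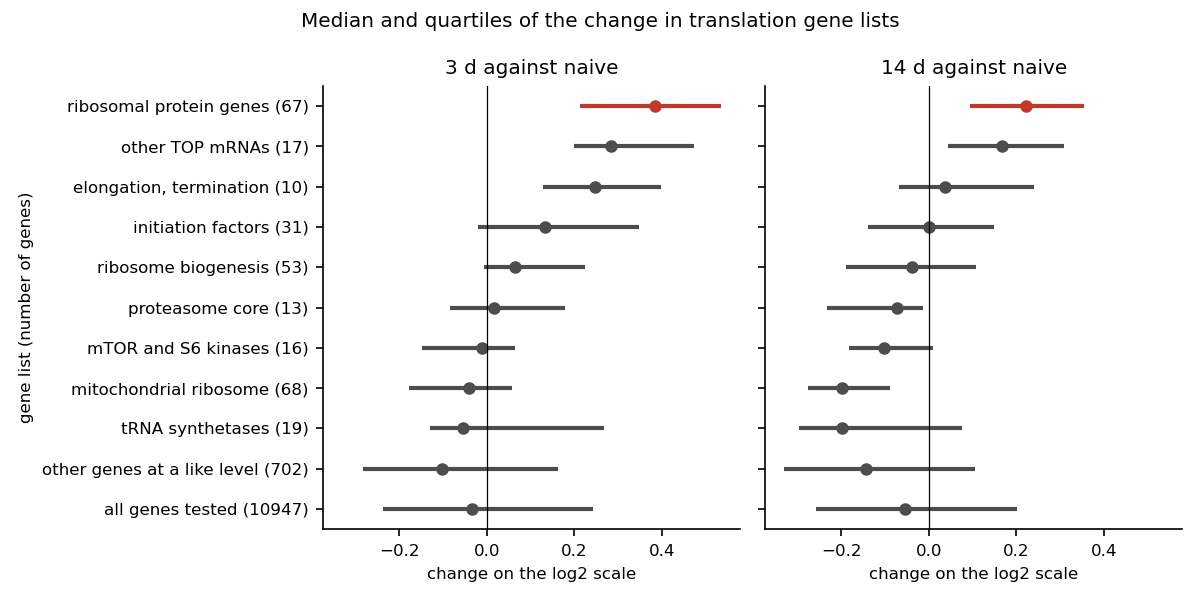
Median (point) and quartiles (bar) of the change on the log2 scale at 3 d and 14 d for the ribosomal protein genes, 8 other lists and 2 sets of other genes, with the number of genes beside each name. The ribosomal protein genes, in red, have medians of 0.38 and 0.22, and the mitochondrial ribosome genes -0.04 and -0.20.

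Markers of cell types were read in the same comparisons. Over all genes 14.4% were called higher and 7.87% lower at 3 d, and 13.6% and 11.4% at 14 d. Single calls in the shorter lists are near these shares. All 13 microglia and macrophage markers rose at 3 d and at 14 d, and the log2 of their summed level was 14.46 in aged and 14.33 in young rats at 3 d and 15.04 in aged and 14.45 in young rats at 14 d, against 13.02 in aged and 12.62 in young naive rats. All 13 cell division markers rose at 3 d and 5 at 14 d. Their summed level was 12.31 in aged and 12.58 in young rats at 3 d and 10.98 in aged and 10.81 in young rats at 14 d, against 10.43 in aged and 10.35 in young naive rats. Of 13 neuronal markers 4 fell at 3 d and 9 at 14 d, with summed levels of 14.86 to 15.03 after stroke, against 15.32 in aged and 15.37 in young naive rats, so the neuronal markers of brain tissue were present on all arrays. Of 9 endothelial markers 6 rose at 3 d and 4 at 14 d, of 10 astrocyte markers 3 rose and 1 fell at 3 d and 5 rose at 14 d, and of 8 oligodendrocyte markers 2 fell at 3 d and 1 at 14 d. Of 5 tested lymphocyte markers 2 rose at 3 d and 1 at 14 d, and both tested red cell markers fell at both times. The summed level of the red cell markers was 8.58 in aged and 8.27 in young rats at 3 d. At 14 d it was 7.80 in aged and 8.31 in young rats, against 10.10 in aged and 10.66 in young naive rats. No marker was at 0 on any array. Their part in the change of the ribosomal protein genes was not tested.

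Ribosomal protein genes have many near-identical processed copies in the genome, and 52 of the 68 members had more than 1 probe set, up to 19 for Rpl21. Apart from the sets that stood for their genes, 136 probe sets reached the 40th percentile. Of these 116 had a mean change above 0 at 3 d, with a median of 0.27, and 91 at 14 d, with a median of 0.13. In 36 of 52 genes with several such probe sets all of them were above 0 at 3 d, and in 15 they lay on both sides. Which copy a probe set reads cannot be told from the files, so single values of these genes are uncertain. The 15 tested members with a single probe set had medians of 0.39 at 3 d and 0.21 at 14 d. By brightness, the 33 brighter members had a median of 0.33 at 3 d and the 34 dimmer ones 0.39.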

How the data were processed

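For each of 28826 probe sets the authors deposited a single value per array, taken here as log2. The base is inferred from their range and not stated. The submitters' processing notes name R 2.14.0 and affy. How background and normalization were handled is not given in the sources used here. Array medians lay between 7.09 and 7.15 and pairwise correlations between 0.962 and 0.995. A common scale removes any overall change in RNA content. Of the probe sets, 15209 had 1 symbol, 306 had several and 13311 were unnamed here. By gene ID, 66 of 68 members matched the RefSeq table of GRCr8, with 0 symbols changed. The RefSeq promoter table gave the sequences.

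An additive model of age and time was fitted with limma 3.58.1 (R 4.3.3), with 2 residual and 5.56 prior degrees of freedom. In 20 simulations of 3 d against naive, with 200 of 10947 genes changed and variances drawn from limma's prior, 3.05% of changes of 0.5 and 79.9% of changes of 1 were called, with 5.42% of calls false. On the real arrays far more genes were called at 3 d, 1571 higher and 861 lower, which makes the adjustment less strict. The shares called in the simulations are therefore not those of the data. Most members changed by less than 0.5, and a member that did not pass may still have changed. P-values measure only the spread between these pools. Members and lists were chosen with earlier results of these data known. Named members were the 4 highest and 4 lowest changes of each tested comparison, the 3 highest and 3 lowest age differences at each time, and genes of special role, and up to 4 genes were named per list, the text giving a part of these. The genes with the longest run were named by that run. Alternatives were other normalizations, filters, variance models and probe set rules, age left out, and each array left out.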

Additional observations from a re-analysis of the deposited data

Results flagged for a closer look

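Among the named ribosomal protein genes, some moved in opposite directions in the 2 ages, each from 1 array a side, so these differences were not tested. The values below are the aged change minus the young change on the log2 scale. At 3 d against naive it was -0.60 for Rps21 (aged -0.15, young 0.45), -0.59 for Rpl36a (aged -0.45, young 0.14), -0.48 for Rps14 (aged -0.27, young 0.21), -0.47 for Rpl36 (aged -0.15, young 0.32) and 0.30 for Rps18 (aged 0.03, young -0.26). At 14 d it was -0.72 for Rpl36 (aged -0.45, young 0.27), -0.68 for Rpl36a (aged -0.19, young 0.49), -0.65 for Rpsa (aged -0.07, young 0.57), -0.47 for Rps3 (aged -0.04, young 0.43) and 0.47 for Rpl38 (aged 0.13, young -0.34). Smaller differences at 14 d were -0.33 for Rpl23, -0.31 for Rps14, -0.23 for Rps25, 0.23 for Rps18 and 0.0898 for Rpl13. Other probe sets of these genes did not always share the opposite signs. At 14 d a second probe set rose in both ages for Rpl38 (aged 0.16, young 0.10) and Rps25 (aged 0.38, young 0.05). A second probe set kept the opposite signs for Rpl36a (aged -0.63, young 0.50) and Rps14 (aged -0.17, young 0.24).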

How the results depend on the processing

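The arrays were paired by age in the model, and the labels give no replicate numbers for any further pairing. The number of members higher at 3 d was 26, and 46 with trended and robust variances, and it ranged from 2 to 36 when an array was left out. The number higher at 14 d was 11, and 26 with trended and robust variances, and 0 to 13 when an array was left out. The 1 lower member at 14 d became 0 without a filter, without age in the model and with the mean of all probe sets, and 0 to 1 when an array was left out. At 14 d against 3 d, 1 member was lower with trended and robust variances, and 0 to 1 when an array was left out. Medians with an array left out ranged from 0.27 to 0.47 at 3 d, 0.12 to 0.30 at 14 d, -0.24 to -0.05 for 14 d against 3 d and -0.04 to 0.11 for aged against young, and fits without 1 array have fewer samples. The other counts and medians stayed on their side under each other alternative run. Centring the arrays moved the median of all genes to -0.08 at 3 d and -0.11 at 14 d. Over the named members, 1584 changes kept their side of the threshold, 83 lost and 37 gained a call. Only 1 was counted as reversed: Rps18 at 3 d, at 0.60 with the probe set of the highest variance. A change that did not pass could switch sign and still count as kept. Rps18 at 14 d did so, from -0.09 to 0.27 with that probe set. The cause was not tested.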
